A study of Homo sapiens with 8 samples.

Results

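The ETS family transcription factors described here are ETS1, ETS2, ETV1, ETV4, ETV5, ELF3, ELF4, EHF, ERF and ELK3, 10 genes of the 55679 gene identifiers in the count table. They were found by gene symbol, each in 1 row. They were chosen by their CPM in the 8 libraries and their log2 ratios in the Acetalax and CE pairs, all described here. Their values are therefore given as a description, and no test on them is read as support. RNA was sequenced from MDA-MB468 and BT549, both established triple-negative breast cancer (TNBC) cell lines, as parental cells and as CE cells (chronic exposure), which had been grown in stepwise higher Acetalax up to 40 μmol/L and then kept 2 weeks without it. Acetalax is oxyphenisatin acetate, formerly a laxative. Each of these 4 backgrounds gave 1 untreated control library and 1 library from cells treated with 1 μmol/L Acetalax for 6 hours, 8 libraries in all. None of them came from the study's knockout or transfected cells, and no genotype of the CE cells is given in the sources used here. The CE cells of a line come from 1 course of selection, described by the study as resistant clones, and with 1 library per condition there was no replicate of any condition within a line.

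ETS factors share a DNA-binding domain that recognizes a GGA core, and differ mainly in their other domains and in the partners they bind. Many are end points of the RAS to ERK cascade: phosphorylation by ERK switches on activators such as ETS1, ETS2 and the PEA3 group (ETV1, ETV4, ETV5), moves the repressor ERF out of the nucleus and turns ELK3 from a repressor into an activator. ELF3 and EHF belong to the epithelium-specific branch of the family, and ETS1 is best known in breast tumors from invasive, mesenchymal cells. Because mRNA was measured in bulk, a lower share of cells with a transcript and less of it per cell cannot be told apart.

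The libraries held 42261122 to 54241728 counts on genes. The lines carried their usual markers. Keratin 5 (KRT5) reached 844 to 1786 CPM (counts scaled to the library's size) in the MDA-MB468 libraries and at most 0.0936 in the BT549 libraries. Vimentin (VIM) reached 895 to 1493 CPM in the BT549 libraries and at most 8.74 in the MDA-MB468 libraries. ESR1 stayed at or under 4.84 CPM and PGR at or under 0.649 CPM, while ERBB2 lay between 43.5 and 92.2 CPM. Of the blood and endothelial markers, CD3E was at 0 counts throughout, PTPRC and LYZ stayed under 1 CPM, and CD14, CDH5 and KDR reached 43.9, 7.53 and 4.14 CPM in MDA-MB468. Library sizes for CPM were scaled by TMM, edgeR's trimmed mean, which assumes that most genes do not differ. A log2 ratio of 2 libraries was taken after adding 0.5 CPM, and its 95% interval covers counting error only. Scaling by total counts moved the median ratio of all genes from -0.01 to -0.17 for Acetalax in BT549 CE cells, so small ratios there depend on the scaling.

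**Figure D1:**
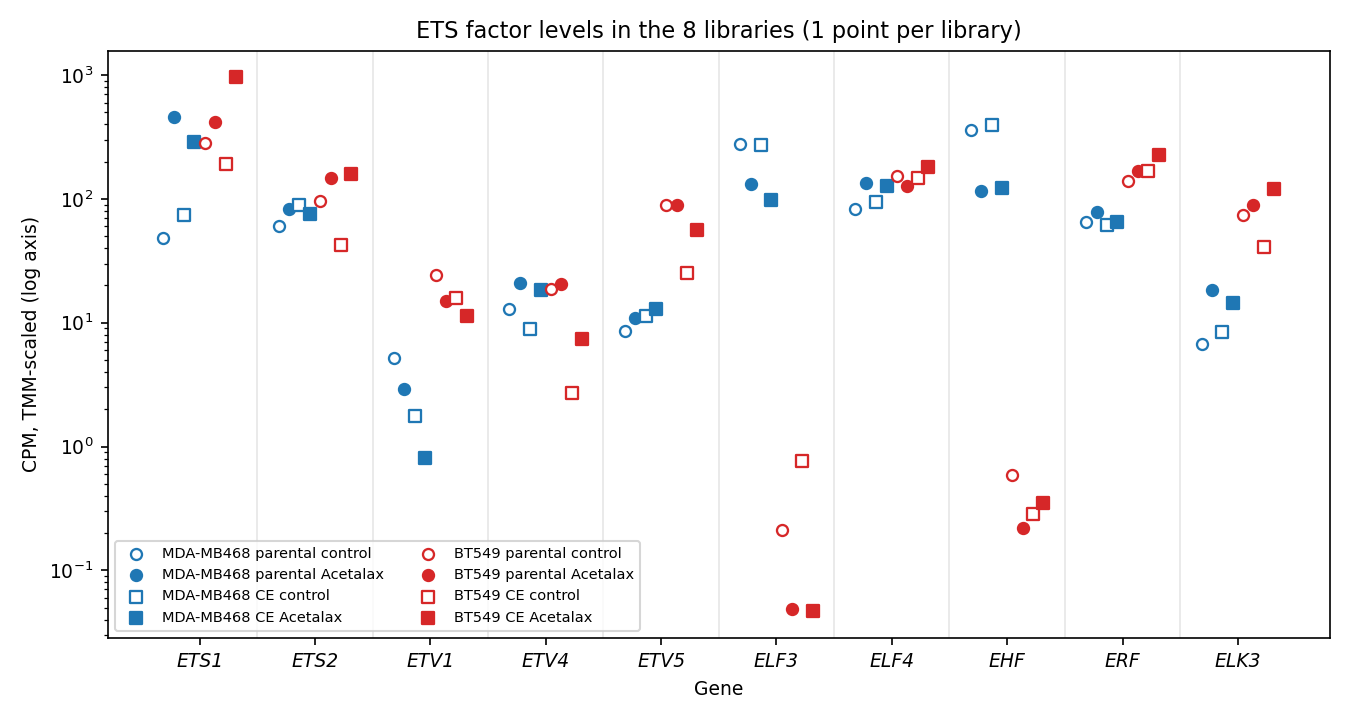
Level of each of the 10 ETS factors in the 8 libraries, in TMM-scaled CPM on a log axis, with 1 point per library (blue, MDA-MB468; red, BT549; circles, parental; squares, CE; open, control; filled, Acetalax). ELF3 and EHF lie at 98.7 CPM or more in all MDA-MB468 libraries and under 1 CPM in all BT549 libraries, while ETS1 is higher in the filled than in the open symbol of each background.

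The epithelium-specific factors ELF3 (chromosome 1, 201977073 to 201986316 in hg19, plus strand) and EHF (chromosome 11, 34642640 to 34682604, plus strand) were high in MDA-MB468 and near 0 in BT549, and both were lower after Acetalax in MDA-MB468. ELF3 was at 277 CPM in MDA-MB468 parental control cells, 131 after Acetalax, 270.0 in CE control cells and 98.7 in CE cells after Acetalax. EHF was at 361, 116, 394 and 122 CPM in the same order. Both Acetalax libraries thus lay below both control libraries of this line for either gene, and the CE control lay close to the parental control. The log2 ratio of ELF3 for Acetalax was -1.08 (95% counting interval -1.12 to -1.03) in parental and -1.45 (-1.49 to -1.40) in CE cells. For EHF it was -1.64 (-1.68 to -1.59) in parental and -1.69 (-1.73 to -1.65) in CE cells, which is 3.11-fold and 3.22-fold lower. In BT549, ELF3 had 9 counts in parental control, 2 after Acetalax, 40 in CE control and 2 in CE cells after Acetalax, and EHF had 25, 9, 15 and 15 counts. Neither gene exceeded 0.764 CPM in that line, and ratios from so few counts are set largely by the 0.5 CPM added. An antisense gene (2319 counts against 39225 for ELF3 over all libraries) and a sense intronic gene (645 counts) overlap ELF3, and since the strand setting of the counting is not stated, part of the reads could belong to either.

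Because ELF3 and EHF were lower together in MDA-MB468, the stretch around a start site of each is shown, from 250 bases before the start to 50 bases from it on. The sequences are RefSeq promoter windows of GRCh38.p14, a build other than that of the count table, and 19 windows were found for 7 of the 10 genes. ETS1, ETV4 and ETV5 had none. Capitals mark matches on either strand. The ETS core was searched as CCGGAA. The site of AP-1, a dimer of JUN and FOS proteins, was searched as TGANTCA. The cyclic AMP response element was searched as TGACGTCA. The TATA box was searched as TATAAA, and the CArG box bound by SRF was searched by its usual degenerate form, which can overlap the TATA box. These motifs were chosen after the values were seen. ELF3 has a single window, chr1:202010337-202010636 on the plus strand, and EHF is shown by its first of 2, chr11:34624007-34624306 on the plus strand.
ELF3: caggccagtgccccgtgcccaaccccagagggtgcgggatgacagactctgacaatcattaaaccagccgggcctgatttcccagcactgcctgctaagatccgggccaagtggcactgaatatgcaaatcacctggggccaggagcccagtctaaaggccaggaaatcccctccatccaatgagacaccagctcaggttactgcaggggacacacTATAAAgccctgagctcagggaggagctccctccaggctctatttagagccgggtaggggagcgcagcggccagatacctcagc
EHF: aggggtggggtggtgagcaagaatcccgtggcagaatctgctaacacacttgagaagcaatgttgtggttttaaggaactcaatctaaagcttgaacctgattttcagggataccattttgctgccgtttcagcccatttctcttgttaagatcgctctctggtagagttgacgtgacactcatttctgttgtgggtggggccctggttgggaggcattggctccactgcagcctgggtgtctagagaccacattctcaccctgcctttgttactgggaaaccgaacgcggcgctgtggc
The ELF3 window holds TATAAA 34 bases before the start, and 11.5% of all 35116 windows hold that word on either strand. The EHF window holds no match to any of the motifs, nor does its second window. Neither gene has a CCGGAA in a window, which 17.2% of all windows hold. These counts say only whether the letters occur in these 300 bases.

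ETS1 (chromosome 11, 128328656 to 128457453, minus strand), the founding member of the family, was higher after Acetalax in all 4 backgrounds and by the widest margin of the 10 genes in 3 of them. In MDA-MB468 it went from 48.6 CPM in parental control cells to 459 after Acetalax, and from 74.3 in CE control cells to 288 after Acetalax. In BT549 it was at 281 CPM in parental control, 420 after Acetalax, 190 in CE control and 957 in CE cells after Acetalax. The MDA-MB468 treated libraries therefore reached the range of the BT549 libraries, and the highest level was that of the treated BT549 CE cells. The log2 ratio was 3.23 (3.17 to 3.29) in MDA-MB468 parental, 1.95 (1.90 to 2.00) in MDA-MB468 CE, 0.58 (0.54 to 0.61) in BT549 parental and 2.33 (2.30 to 2.36) in BT549 CE cells. This corresponds to 9.37-fold, 3.86-fold, 1.49-fold and 5.03-fold. The order of parental and CE cells was opposite in the lines, with the larger ratio in parental cells of MDA-MB468 and in CE cells of BT549. ETS2 (chromosome 21, 40177231 to 40196879, plus strand), its closest relative, did not follow that pattern. ETS2 was at 60.5 CPM in MDA-MB468 parental control, 82.6 after Acetalax, 88.5 in CE control and 75.3 in CE cells after Acetalax. In BT549 it was at 95.9, 147, 42.2 and 160 CPM in the same order. Its Acetalax log2 ratios were 0.45 and -0.23 in MDA-MB468 parental and CE cells, and 0.62 and 1.91 in BT549 parental and CE cells. The treated BT549 libraries lay at the same height (147 and 160 CPM), and it was the untreated CE cells that were low.

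Within the PEA3 group, ETV1 stood apart from ETV4 and ETV5. ETV1 (chromosome 7, 13930853 to 14031050, minus strand) was lower after Acetalax in every background, at 5.15 CPM in MDA-MB468 parental control, 2.92 after Acetalax, 1.76 in CE control and 0.81 in CE cells after Acetalax, and at 24.1, 14.9, 15.9 and 11.4 CPM in BT549. Its 4 log2 ratios, -0.73, -0.79, -0.68 and -0.46 in MDA-MB468 parental, MDA-MB468 CE, BT549 parental and BT549 CE cells, had counting intervals that overlapped each other. It was also lower in CE than in parental control cells of both lines, by 1.32 and 0.58 on the log2 scale in MDA-MB468 and BT549. ETV4 (chromosome 17, 41605212 to 41656988, minus strand) was at 12.9, 20.8, 8.93 and 18.4 CPM in MDA-MB468 (parental control, parental Acetalax, CE control, CE Acetalax) and at 18.9, 20.5, 2.71 and 7.40 CPM in BT549. The BT549 CE control library was the lowest of all, 6.03-fold below its parental control. ETV4 overlaps DHX8 on the opposite strand, which had 19995 counts against 5178 for ETV4, so its counts are uncertain. ETV5 (chromosome 3, 185764097 to 185828107, minus strand) was flat in MDA-MB468, at 8.60, 10.9, 11.3 and 12.8 CPM, and higher in BT549, at 88.7, 89.9, 25.1 and 56.5 CPM. As with ETS2 and ETV4, the untreated BT549 CE library had the lowest value of its line, and the Acetalax log2 ratio was 0.02 (-0.05 to 0.08) in BT549 parental and 1.15 (1.06 to 1.25) in BT549 CE cells. The first of these changes sign with the scaling and is -0.06 with total counts.

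Of the 7 genes with a window, ETV1 was the only one with a CCGGAA. It has 6 windows, 3 of which hold the word 1 time each, and 2 of those 3 overlap nearly whole and share the same match, so the first 2 windows are shown (chr7:13990653-13990952 and chr7:13991376-13991675, both on the minus strand, GRCh38.p14, with the match in capitals).
ETV1 first window: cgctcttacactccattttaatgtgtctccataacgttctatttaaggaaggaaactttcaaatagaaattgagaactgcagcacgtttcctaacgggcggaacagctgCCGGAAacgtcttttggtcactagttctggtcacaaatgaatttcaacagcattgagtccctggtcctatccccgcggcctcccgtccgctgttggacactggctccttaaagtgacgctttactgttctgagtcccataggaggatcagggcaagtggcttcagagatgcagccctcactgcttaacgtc
ETV1 second window: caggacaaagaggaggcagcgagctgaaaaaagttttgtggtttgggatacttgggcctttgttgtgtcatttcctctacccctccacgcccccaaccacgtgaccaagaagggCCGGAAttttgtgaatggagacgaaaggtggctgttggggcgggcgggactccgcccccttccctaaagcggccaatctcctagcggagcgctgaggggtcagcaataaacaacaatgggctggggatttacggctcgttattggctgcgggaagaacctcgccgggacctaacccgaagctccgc
The matches lie 141 and 136 bases before the respective start. Of the other windows of members, a window of ELF4 holds TGAGTCA 121 bases before its start, which fits the AP-1 word that 7.71% of all windows hold. None of the 19 windows holds TGACGTCA (1.85% of all windows) or a CArG box (1.29%).

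ELF4 (chromosome X, 129198849 to 129244691, minus strand), an activator best studied in lymphocytes and innate immunity, varied least of the 10 genes. It was at 82.6, 134, 95.2 and 126 CPM in MDA-MB468 (parental control, parental Acetalax, CE control, CE Acetalax) and at 152, 128, 147 and 181 CPM in BT549. Its Acetalax log2 ratio was 0.70 and 0.40 in MDA-MB468 parental and CE cells, -0.24 in BT549 parental and 0.30 in BT549 CE cells. The ranges of the lines overlapped, since the highest MDA-MB468 library lay above the lowest BT549 library.

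The repressors of the group were both higher in BT549. ERF (chromosome 19, 42751724 to 42759309, minus strand) was at 64.7, 78.4, 61.2 and 65.3 CPM in MDA-MB468 (parental control, parental Acetalax, CE control, CE Acetalax) and at 139, 167, 167 and 225 CPM in BT549. Its Acetalax log2 ratios were small and of the same sign, 0.27, 0.09, 0.26 and 0.43 in MDA-MB468 parental, MDA-MB468 CE, BT549 parental and BT549 CE cells. ELK3 (chromosome 12, 96588160 to 96663613, plus strand), a ternary complex factor that binds DNA together with SRF, was at 6.74, 18.3, 8.46 and 14.4 CPM in MDA-MB468 and at 74.1, 89.4, 40.9 and 120 CPM in BT549. No ELK3 level in MDA-MB468 reached the lowest BT549 library. Its Acetalax log2 ratios were 1.37 (1.21 to 1.54) and 0.73 (0.56 to 0.90) in MDA-MB468 parental and CE cells, and 0.27 (0.20 to 0.34) and 1.54 (1.47 to 1.61) in BT549 parental and CE cells. As for ETS1, the larger ratio was in the parental cells of MDA-MB468 and in the CE cells of BT549.

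**Figure D2:**
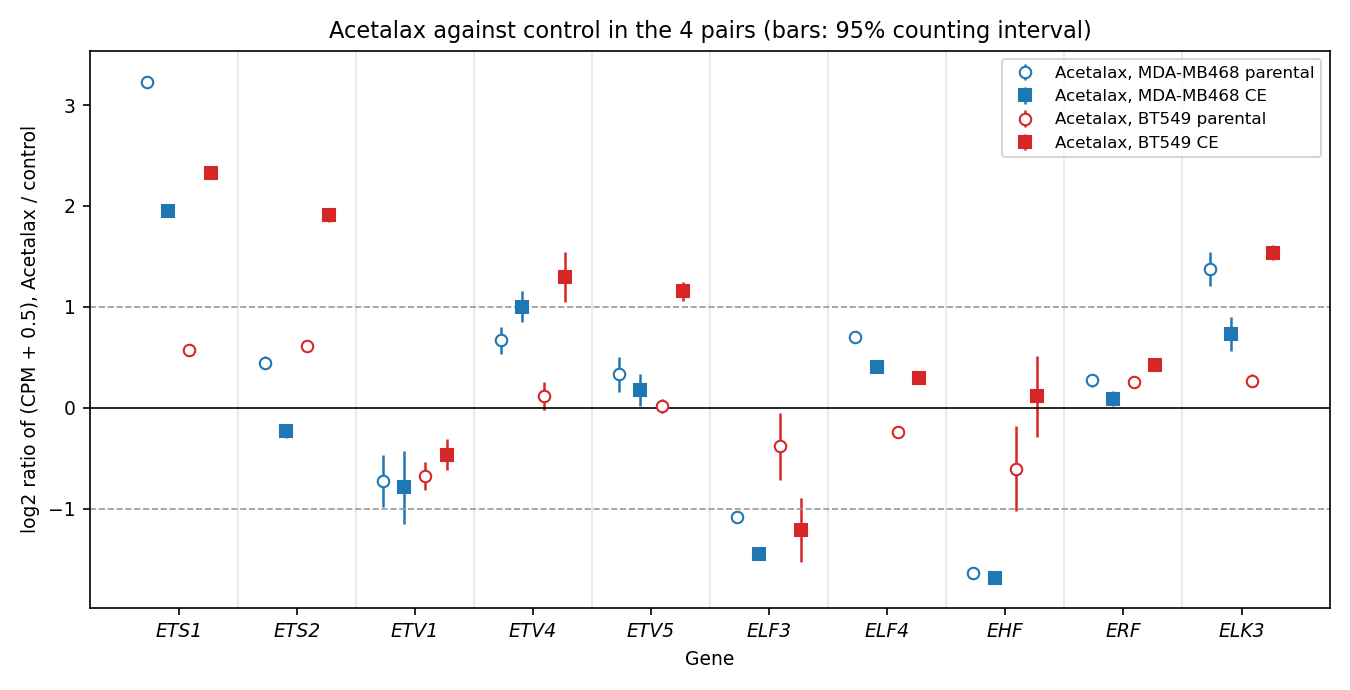
Log2 ratio of Acetalax to control, after adding 0.5 CPM, for each ETS factor in the 4 backgrounds (blue, MDA-MB468; red, BT549; open circles, parental; filled squares, CE), with bars for the 95% counting interval and dashed lines at 1 and -1. ETS1 reaches 3.23 in MDA-MB468 parental cells, and EHF lies at -1.64 and -1.69 in the MDA-MB468 backgrounds.

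Set side by side over the 4 Acetalax pairs, 5 of the 10 genes (ETS1, ETV4, ETV5, ERF, ELK3) were higher after Acetalax in all of them, 2 (ETV1, ELF3) were lower in all of them, and ETS2, ELF4 and EHF were mixed. Of the 14005 genes that averaged 1 CPM or more, 18.2% were higher in all 4 pairs and 21.5% lower. A ratio of at least 1 in size on the log2 scale was found for 4 of 10 genes in MDA-MB468 parental cells (ETS1, ELK3, ELF3, EHF; 6.57% of all genes), and for 0 of 10 in BT549 parental cells (2.53%). It was found for 4 in MDA-MB468 CE cells (ETS1, ETV4, ELF3, EHF; 3.23%), where ETV4 lay at the line itself with 1.00 (0.85 to 1.16). In BT549 CE cells 6 genes passed it (ETS1, ETS2, ETV4, ETV5, ELK3, ELF3; 11.6%), with ELF3 resting on 40 and 2 counts. The median ratio of the 10 genes was 0.39, 0.07, 0.14 and 0.79 in MDA-MB468 parental, BT549 parental, MDA-MB468 CE and BT549 CE cells, against -0.03, -0.02, 0.00 and -0.01 over all genes. Since these ratios chose the genes, nothing is read from the shares.

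In edgeR's quasi-likelihood fit of Acetalax over the 4 backgrounds, with the background as a block, ETS1 had a log2 fold change of 2.04 (SE 0.38) and ELK3 of 1.00 (SE 0.22). ETV4 was at 0.81 (SE 0.22), ETS2 at 0.68 (SE 0.31), ETV5 at 0.43 (SE 0.19), ELF4 at 0.29 (SE 0.15) and ERF at 0.26 (SE 0.09). The lower side held ETV1 at -0.75 (SE 0.16), EHF at -1.44 (SE 0.25) and ELF3 at -1.48 (SE 0.27). The last 2 had at most 40 counts in any BT549 library. At an adjusted p under 0.05, 5 of the 10 genes were called (ETS1 and ELK3 higher, ETV1, EHF and ELF3 lower), against 919 of 17811 genes tested (5.16%). These calls came from the contrast that chose the genes and support nothing. The number of genes called fell to 0 without the MDA-MB468 parental, the MDA-MB468 CE or the BT549 CE pair, and was 299 without the BT549 parental pair. An exact two-sided sign-flip test on a single gene over 4 pairs cannot go below p = 0.125.

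**Figure D3:**
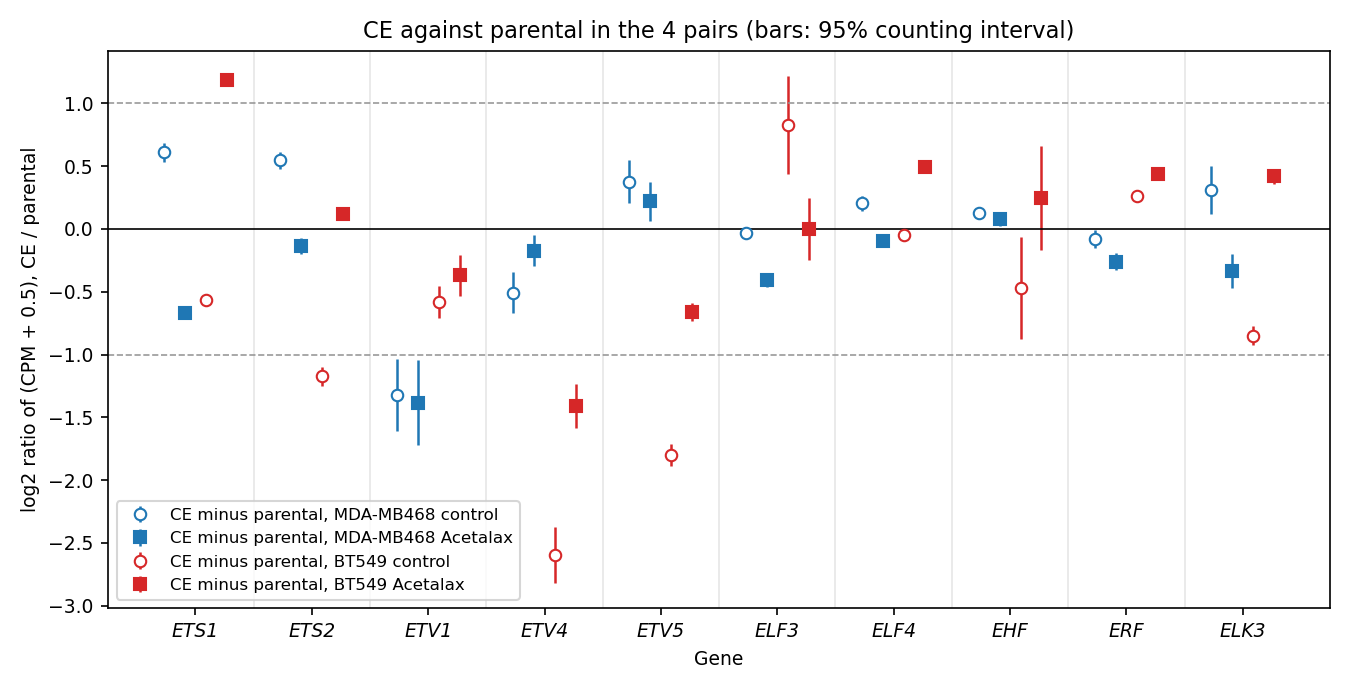
Log2 ratio of CE to parental cells, after adding 0.5 CPM, for each ETS factor (blue, MDA-MB468; red, BT549; open circles, control pair; filled squares, Acetalax pair), with bars for the 95% counting interval and dashed lines at 1 and -1. In BT549 control cells ETV4, ETV5 and ETS2 lie at -2.59, -1.80 and -1.17, while ETV1 lies at -1.32 in MDA-MB468 control cells.

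Between CE and parental cells the lines differed gene by gene. In BT549 control cells, ETV4 was lower by 2.59 on the log2 scale (2.37 to 2.81 by counting error), ETV5 by 1.80, ETS2 by 1.17, ELK3 by 0.85, ETV1 by 0.58 and ETS1 by 0.57. In MDA-MB468 control cells ETV1 was lower by 1.32 and ETV4 by 0.51, whereas ETS1 was higher by 0.61, ETS2 by 0.55, ETV5 by 0.37 and ELK3 by 0.31. Of the 10 genes, only ETV1 and ETV4 lay on the same side of 0 in both lines, although the MDA-MB468 value of ELF3 (-0.04) changes sign with total-count scaling. A ratio of at least 1 in size was found for 1 of 10 genes in MDA-MB468 control cells (3.11% of all genes) and for 3 of 10 in BT549 control cells (10.7%). With Acetalax present, ETV4 and ETV5 were still lower in the CE cells of BT549, by 1.41 and 0.66, while ETS1 was higher by 1.19 and ELK3 by 0.42. These Acetalax pairs come from the same CE cultures as the control pairs, and the Acetalax ratios above share their control libraries with the CE control ratios, so the sets are not independent of each other. ETV1 and ETV4 had negative CE ratios in all 4 pairs, with fitted log2 fold changes of -1.06 (SE 0.30) and -1.21 (SE 0.45). The remaining 8 genes had fitted CE changes from -0.46 (ETV5, SE 0.39) to 0.17 (ELF3, SE 0.35).

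The lines divided several members, as they divided most genes tested. ETV1, ETV5, ERF and ELK3 had all 4 BT549 libraries above all 4 MDA-MB468 libraries (28.9% of all genes do), and ELF3 and EHF had all 4 below (27.8%). ETS1, ETS2, ETV4 and ELF4 overlapped between the lines. No trait of the members is read from these counts. The fitted log2 difference, BT549 against MDA-MB468, was 2.87 (SE 0.34) for ETV1, 2.77 (SE 0.25) for ELK3, 2.43 (SE 0.39) for ETV5 and 1.36 (SE 0.16) for ERF. For ELF3 and EHF it was -9.79 (SE 0.54) and -9.31 (SE 0.39), values that depend on the few BT549 counts. The epithelial list, which includes the epithelial factors GRHL2 and GRHL3, and the mesenchymal list moved with this divide, since 16 of 16 epithelial genes were lower and 14 of 14 mesenchymal genes higher in BT549 by edgeR's adjusted p, a test that called 57.1% of all genes.

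**Figure D4:**
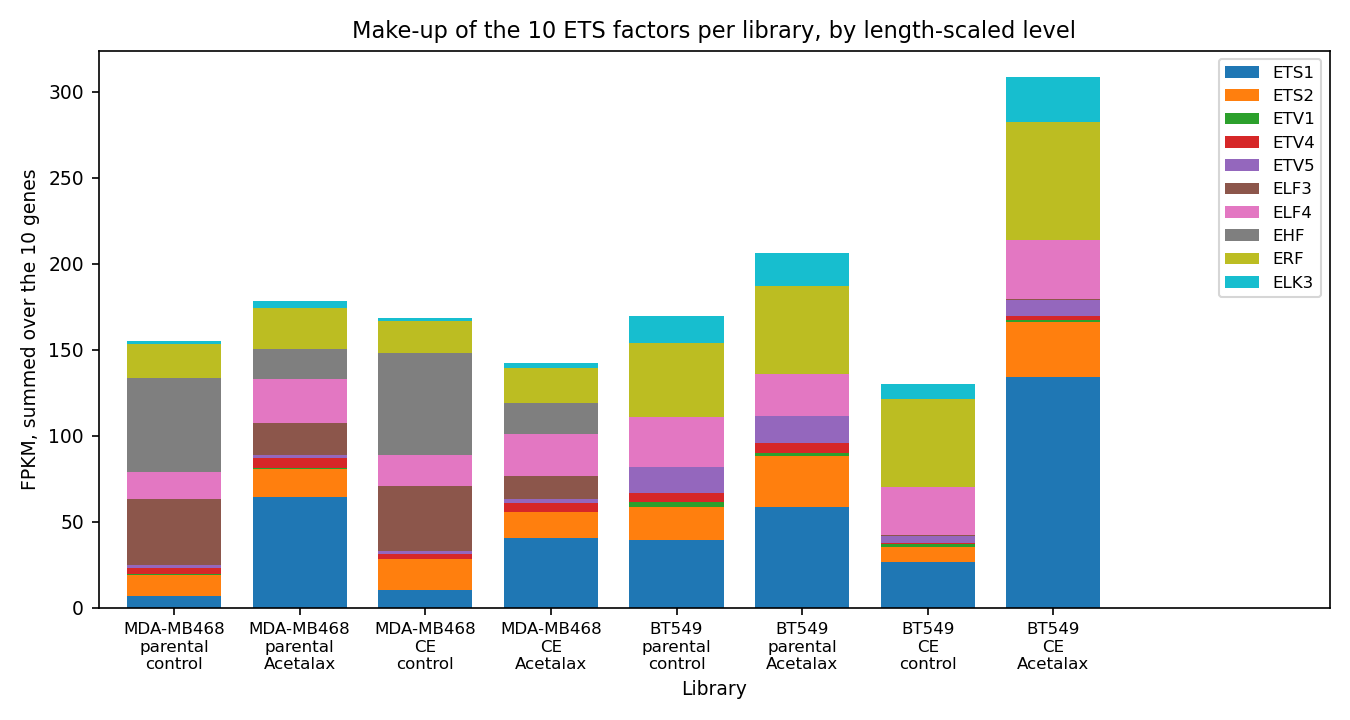
Length-scaled level (FPKM, the CPM divided by the merged exon length in kilobases) of the 10 ETS factors, stacked for each of the 8 libraries. EHF and ELF3 fill the largest sections in untreated MDA-MB468 cells and are nearly absent from BT549, while ETS1 is the largest section in all 4 treated libraries.

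Levels of different genes were compared per exon length, in FPKM. The 10 genes made up 49.3% to 74.6% of the FPKM sum of the 28 ETS genes in the table. In MDA-MB468 control cells EHF had the most of the 10, with 17.4% of the family sum in parental and 18.0% in CE cells, followed by ELF3 with 12.3% and 11.4%. SPDEF, which is not among the 10, stood above both with 29.2% and 28.4%. After Acetalax ETS1 had 20.8% in parental cells, first of the 28, and 14.3% in CE cells, second to SPDEF with 26.2%. In BT549 control cells ERF led with 18.6% in parental and 25.9% in CE cells, and after Acetalax ETS1 led with 21.1% and 32.4%. ETS1 was therefore first of the 10 genes in all 4 treated libraries and in none of the 4 controls, and first of all 28 in 3 of the treated libraries. Averaged over the libraries of a line (mean ± SD over 4 conditions, which are not replicates), MDA-MB468 had EHF at 37.5 ± 22.7 FPKM, ETS1 at 30.4 ± 27.1, ELF3 at 27.0 ± 12.9, ELF4 at 20.9 ± 4.70, ERF at 20.6 ± 2.31 and ETS2 at 15.4 ± 2.43. ETV4 (4.35 ± 1.53), ELK3 (2.58 ± 1.15), ETV5 (1.89 ± 0.30) and ETV1 (0.28 ± 0.20) followed. Neighbors in this order had overlapping ranges, except ERF (18.7 to 24.0) and ETS2 (12.1 to 17.8), ETS2 and ETV4, and ETV5 and ETV1. BT549 had ETS1 at 64.6 ± 48.0 FPKM, ERF at 53.4 ± 11.1, ELF4 at 29.0 ± 4.15, ETS2 at 22.4 ± 10.8, ELK3 at 17.4 ± 7.06 and ETV5 at 11.3 ± 5.33. ETV4 (3.52 ± 2.47), ETV1 (1.73 ± 0.56), EHF (0.05 ± 0.02) and ELF3 (0.04 ± 0.05) closed the order, in which the ranges of neighbors overlapped except those of ERF and ELF4 and of ETV1 and EHF.

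**Figure D5:**
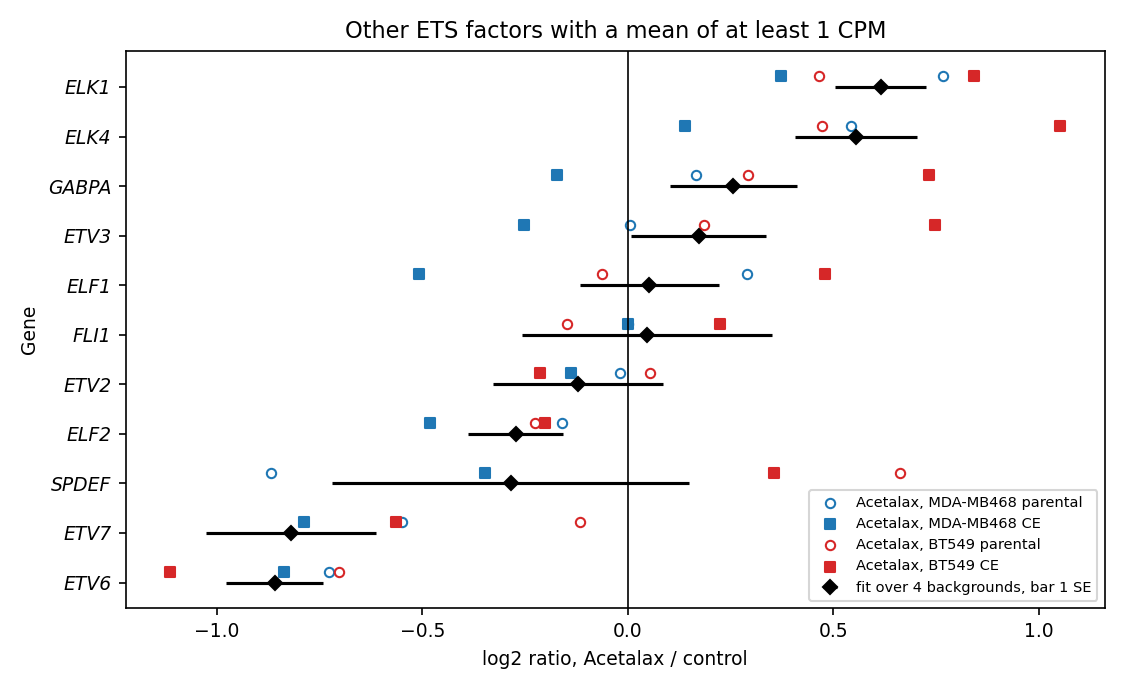
Acetalax log2 fold change of the 11 other ETS factors that averaged 1 CPM or more (black, edgeR fit over 4 backgrounds with bars of 1 SE; colored, the 4 pairs of libraries after adding 0.5 CPM). ELK1 lies to the right of 0 and ETV6 to the left of 0 in all 4 pairs.

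Of the 18 other ETS factors in the table, 12 were abundant enough to be tested, and 2 of these changed with Acetalax, against 5.16% of all genes. ELK1, a ternary complex factor like ELK3, rose by 0.62 on the log2 scale (SE 0.11, edgeR adjusted p = 0.0405) and was higher in 4 of 4 pairs, from 57.7 to 98.7 CPM in MDA-MB468 parental, 74.1 to 96.1 in MDA-MB468 CE, 97.5 to 135 in BT549 parental and 104 to 187 in BT549 CE cells. ETV6, a repressor with a self-associating pointed domain, fell by 0.86 (SE 0.12, edgeR adjusted p = 0.0311) in 4 of 4 pairs, from 69.5 to 41.7, 53.0 to 29.4, 25.3 to 15.4 and 36.4 to 16.6 CPM in the same order. Both calls were kept with total-count scaling (edgeR adjusted p = 0.0472 and 0.0377), and over all alternatives the adjusted p ranged from 6.59e-05 to 1 for ELK1 and from 5.36e-08 to 1 for ETV6, the highest without the block. Without the MDA-MB468 parental, MDA-MB468 CE or BT549 CE pair no gene was called. Without BT549 parental, ETV6 kept its call (adjusted p = 0.0498) and ELK1 did not. The median over the 12 was -0.04, against -0.02 over all genes. ELK4 (0.56, SE 0.15, edgeR adjusted p = 0.0676), GABPA (0.26, SE 0.15), ETV3 (0.17, SE 0.16), ELF1 (0.05, SE 0.17), ETV2 (-0.12, SE 0.21), ELF2 (-0.27, SE 0.12) and ETV7 (-0.82, SE 0.21, edgeR adjusted p = 0.059) did not pass. SPDEF, a luminal epithelial factor, was at 175, 95.9, 179 and 141 CPM in MDA-MB468 parental control, parental Acetalax, CE control and CE Acetalax cells, and at most 0.291 CPM in BT549, the divide seen for ELF3 and EHF. FLI1 had no count in the 4 MDA-MB468 libraries, which allows up to 3 counts in each, and in BT549 it was at 0.592 and 0.485 CPM in parental and 12.4 and 14.6 CPM in CE cells. Its CE change therefore lies in BT549 alone and did not pass over both lines (edgeR adjusted p = 0.0887). None of the 12 was called for CE against parental cells, a test that called 0.0618% of all genes. In edgeR 2 of the 12 had an unadjusted p under 0.05, beside 2542 of the 17811 genes tested. DESeq2 called 0 of them, beside 5.45% of its 16985 genes. ERG, FEV, ETV3L, SPI1, SPIB and SPIC had at most 7 counts in any library.

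The further lists follow the pathway around the members, and were written with earlier results of these data known. CIC is a repressor released by ERK signaling, and ETV1, ETV4 and ETV5 are among its targets. Of 14 tested genes under the same repressor, edgeR called 1 for Acetalax, against 5.16% of all genes. At an unadjusted p under 0.05 there were 8, all higher, beside 5188 of the 17811 genes tested. DESeq2 called 6, all higher, beside 16.5% of its 16264 genes. These 2 shares over all genes also apply to the next list. The gene called by edgeR was the ERK inhibitor SPRY2 (log2 fold change 1.30, SE 0.24, edgeR adjusted p = 0.0411, higher in 4 of 4 pairs). It went from 18.2 to 51.7 CPM in MDA-MB468 parental and from 18.1 to 42.2 in MDA-MB468 CE cells. In BT549 it went from 77.1 to 103 CPM in parental and from 43.0 to 180 CPM in CE cells. FOSL1, a subunit of AP-1, had a log2 fold change of 3.07 (SE 0.79, edgeR adjusted p = 0.0614), with 6.19 and 352 CPM in control and treated MDA-MB468 parental cells. Its log2 ratios were 5.72 and 3.17 in MDA-MB468 parental and CE cells, and 0.48 and 2.92 in BT549 parental and CE cells. SPRY4 (1.36, SE 0.38) and DUSP6 (1.22, SE 0.34) did not pass either. The median was 0.62, against -0.02 over all genes. Of 12 targets of SRF and the ternary complex factors, which share FOSL1 with the list above, edgeR called 2 for Acetalax (5.16% of all genes). An unadjusted p under 0.05 was found for 8, all higher. DESeq2 called 6, all higher, with FOSL1 again among them. The 2 were SRF itself (1.06, SE 0.18, edgeR adjusted p = 0.0394) and MCL1 (0.65, SE 0.14, edgeR adjusted p = 0.0462), both higher in 4 of 4 pairs. MCL1 lies outside the naming rule and was chosen after its values were seen, and its call was lost with total-count scaling (edgeR adjusted p = 0.0515, from 3.99e-08 to 1 over the alternatives). IER3 (1.71, SE 0.52) and FOS (-0.79, SE 0.42) did not pass, and the median was 0.62. The FOS log2 ratios were -2.28 and -1.25 in MDA-MB468 parental and CE cells, and 0.54 and -0.18 in BT549 parental and CE cells. For the Acetalax response between lines, edgeR called 3 of the 12, all with the higher value in BT549 (1.79% of all genes). That fit had 2 residual degrees of freedom.

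Among 11 tested protease and matrix genes long studied as ETS targets, 0 were called for Acetalax, with a median of 0.33. In edgeR 5 had an unadjusted p under 0.05, beside 5188 of the 17811 genes tested. DESeq2 called 3, with PLAU and PLAUR among them, beside 16.5% of its 16264 genes. PLAUR, the urokinase receptor, had 1.06 (SE 0.30), its ligand PLAU 0.75 (SE 0.22) and TNC 0.44 (SE 0.18). For CE against parental cells 1 of these genes was called, MMP14, a membrane-bound metalloprotease, which fell by 1.35 (SE 0.12, edgeR adjusted p = 0.0468), from 26.4 to 10.1 CPM in MDA-MB468 and from 1164 to 450 CPM in BT549 control cells. It was named after its values were seen, and its call was lost with DESeq2's size factors (edgeR adjusted p = 0.0643) and when any of the 4 pairs was left out (0.145 to 0.306), with a range of 1.47e-15 to 0.306 over the alternatives.

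Of 20 regulators and partners of ETS factors, edgeR called 1 for Acetalax, a share like the 5.16% of all genes. At an unadjusted p under 0.05 there were 7 (5 higher, 2 lower), beside 5188 of the 17811 genes tested. DESeq2 called ATXN1, CBFB and RUNX1, all higher, beside 16.5% of its 16264 genes. The gene called by edgeR was RUNX1, which binds DNA together with ETS1 (0.96, SE 0.20, edgeR adjusted p = 0.0432, higher in 4 of 4 pairs). Its call was lost with total-count scaling (edgeR adjusted p = 0.0507, from 3.14e-11 to 1 over the alternatives). RUNX1 was at 47.6 and 130 CPM in control and treated MDA-MB468 parental cells and at 82.9 and 213 CPM in BT549 CE cells. Its subunit partner CBFB (0.48, SE 0.12), ATXN1 (0.64, SE 0.15) and RPS6KA3 (0.46, SE 0.15) did not pass, and the median was 0.08. Of 16 epithelial genes, edgeR called 2 as lower after Acetalax (5.16% of all genes). At an unadjusted p under 0.05 there were 4, all lower, beside 5188 of 17811 genes. DESeq2, which called 16.5% of 16264 genes, called the same 2 here. These were the epidermal factor GRHL3 (-2.01, SE 0.27, edgeR adjusted p = 0.0311) and keratin 19 (KRT19, -0.73, SE 0.15, edgeR adjusted p = 0.0444), both lower in 4 of 4 pairs. The BT549 log2 ratios of GRHL3, -0.12 in parental and -0.14 in CE cells, rest on levels of at most 0.153 CPM. GRHL3 was at 21.7 and 3.91 CPM in control and treated MDA-MB468 parental cells and at 26.8 and 7.47 CPM in CE cells, the same 2 backgrounds in which ELF3 and EHF were lower, and under 1 CPM in BT549. KRT19 reached at most 4.30 CPM in BT549, and its call was lost with any 1 pair left out (edgeR adjusted p from 0.0609 to 0.191). GRHL2 (-0.58, SE 0.33) and GRHL1 (-0.42, SE 0.16) did not pass, and the median was -0.15. Not every gene of this list was lower. EPCAM was at 381 and 429 CPM in control and treated MDA-MB468 parental cells, and at 370 and 397 CPM in CE cells. CDH1 was at 111 and 129 CPM and at 140 and 138 CPM in the same order. Both were named after their values were seen. Of 14 mesenchymal genes 0 were called for Acetalax, with a median of 0.15. In edgeR 4 had an unadjusted p under 0.05, beside 5188 of 17811 genes, and DESeq2 called LOX, beside 16.5% of 16264. LOX had 0.55 (SE 0.15), VIM 0.49 (SE 0.14), SNAI2 0.48 (SE 0.29) and CDH2 0.35 (SE 0.15).

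The genes whose levels followed each member most closely were sought among 11091 genes averaging 5 CPM or more, by the root mean square (RMS) difference of the centered log2 levels over the 8 libraries. For ETS1 they were RELB, a subunit of NF-κB (0.23), and CLCF1, a cytokine of the IL6 family (0.31), where ETS1 itself deviated from its mean by 1.31 (RMS). ELF3 and EHF shared their nearest genes, DTX4 and RNF144B, at 0.40 and 0.47 for ELF3 and 0.50 and 0.49 for EHF, against own deviations of 4.01 and 4.03. For ETV4 the nearest were UBASH3B (0.19) and the integrin subunit ITGB8 (0.26), for ETV5 LRP12 (0.27) and UHRF2 (0.29), and for ETV1 CEP170 (0.40) and ARHGAP18 (0.41). ETS2 had RYBP (0.24) and GRPEL2 (0.26), ELK3 had POLR3D (0.19) and NUAK1 (0.26), ELF4 had SBNO2 (0.08) and DVL1 (0.11), and ERF had MED31 (0.07) and NDUFAF2 (0.08). ERF itself deviated by 0.70 and ELF4 by 0.34, the smallest of all members, so a small distance to ELF4 says less. The 8 points share the line and the culture, so these distances describe the libraries only.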

How the data were processed

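Poly(A)-selected RNA of MDA-MB468 and BT549 cells gave 8 libraries, 1 per condition, grouped by the labels. Per the labels' processing notes, the authors aligned paired reads to hg19 with STAR 2.7.11b, and they deposited raw counts per gene, whole numbers without normalization. The annotation and strand column are not given in the sources used here. Of 58154 rows, each of 55679 identifiers was kept 1 time. From the counts, CPM was computed with TMM scaling (edgeR 4.0.16, R 4.3.3), and FPKM with merged exon lengths of an hg19 GENCODE annotation. Log2 ratios used a pseudocount of 0.5 CPM, and 95% counting intervals came from the delta method (1.96 SE). Shares of all genes past a fold, by sign or without overlap refer to the 14005 genes averaging 1 CPM or more. Shares called by an edgeR test, and the medians set beside those of the lists, refer to the 17811 genes tested. DESeq2's shares refer to the genes to which it gave an adjusted p. Tests were edgeR quasi-likelihood fits (filterByExpr, 17811 genes, Benjamini-Hochberg, threshold 0.05) with the background or pair as block and 3 residual degrees of freedom. The SE is the log2 fold change divided by the square root of F. In the Acetalax fit the backgrounds stand in as replicates. In the CE fit the pairs of line and treatment do so, and in the line fit the conditions. The p-values measure the spread between these units. All units come from MDA-MB468 and BT549, and the CE cells derive from the parental cells, so the units are not independent. Only the Acetalax fit was tested on simulated counts. These had the same change in every background and a lower dispersion than the common dispersion of 0.035 fitted here.

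The members and all gene lists were chosen with earlier results of these data known. The text names all members, the other ETS factors averaging 1 CPM or more, up to 4 genes per further list (averaging 5 CPM or more) with the largest Acetalax log2 fold change in size, and the 2 genes nearest to each member in profile. MCL1, MMP14, EPCAM and CDH1 lie outside this rule. Some genes it covers are not reported here. Alternatives were total counts and DESeq2's size factors as scaling, every gene with at least 1 count, DESeq2 1.42.0, no block, each pair left out, pseudocounts of 0.1 and 1, a fold of 1.5 and the longest transcript. Promoter windows came from RefSeq (GRCh38.p14).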

Additional observations from a re-analysis of the deposited data

Results flagged for a closer look

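Of the members, 2 moved in opposite directions between CE and parental cells of the lines, in every pair. The log2 ratio of ETV5 was 0.37 in control and 0.22 in Acetalax cells of MDA-MB468, and -1.80 and -0.66 in BT549. For ERF it was -0.08 and -0.26 in MDA-MB468, and 0.26 and 0.43 in BT549. The CE difference between lines was fitted over all genes. These values helped to choose the members, so no p-value of that fit is read for them. The pairs of a line come from the same CE culture and are not independent.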

How the results depend on the processing

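Of the alternative fits of member log2 fold changes, 249 moved them by less than 1 SD. The 1 exception is ELF3 in the line comparison, at -9.79 with all pairs and -10.7 without the CE control pair, where BT549 had few counts. Leaving out 1 of 4 pairs can hardly move a mean by 1 SD, so that limit says little for such fits. Within it, ETS2 for Acetalax went from 0.68 to 0.28 without the BT549 CE pair. ETV4 for CE against parental cells went from -1.21 to -0.72 without the BT549 control pair. For Acetalax, 919 genes were called (493 higher, 426 lower), 3585 when every gene with at least 1 count was tested, 2678 with DESeq2, 0 without the block (774 at an unadjusted p under 0.05), and 0 to 299 with 1 pair left out. Where it was 0, 3277 to 4649 genes had an unadjusted p under 0.05. Total-count scaling gave 280 higher and 523 lower genes. For CE against parental cells 11 genes were called, 446 with every gene, 925 with DESeq2, and 0 with each pair left out in turn (1314 to 2344 at an unadjusted p under 0.05). For the Acetalax response between lines, 318 became 1632 with every gene and 926 with DESeq2. For the response between CE and parental cells, 0 (70 at an unadjusted p under 0.05) became 3 with every gene. For the CE difference between lines, total counts gave 1163 higher and 1334 lower genes, against 1497 and 944. At a fold of 1.5, members past the fold were 7 in place of 4 (MDA-MB468 parental, Acetalax), 3 in place of 0 (BT549 parental, Acetalax; 2 with a pseudocount of 0.1), 2 in place of 1 (MDA-MB468 control, CE) and 5 in place of 3 (BT549 control, CE). The mean FPKM of ETV4 was 3.93, and 5.92 with its longest transcript. The causes were not tested. With 1 library per condition, no difference within a line has an error beyond counting error.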
